A study of Danio rerio with 15 samples.

Results

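Skeletal muscle RNA of adult female zebrafish without Scaf1 was compared with that of wild-type females while both genotypes were overfed. The comparison took the samples labelled with the double diet, 4 scaf1-/- fish (replicates 2, 3, 6 and 7) against 3 scaf1+/+ fish (replicates 2, 3 and 4), 7 of the 15 libraries of the series. The scaf1-/- fish were homozygous for the first deletion made in the study, which brings in a premature stop codon, and the scaf1+/+ fish came from the wild-type sibling line of the same founder crossed with AB fish. Per the study's methods, this diet experiment started at an age of 7 months, and after 6 weeks muscle was dissected. Per the labels, fish on the double diet received the dry food gemma-300 with 5 meals a day, and the other 8 fish, 4 of each genotype, 3 meals. These 8 are used here as separate fish in which the same genotype difference can be read. They also enter the fits and interaction tests that span both diets. The study's methods add that on weekdays a meal of either diet was artemia and that weekend meals were fewer. Each genotype was thus represented by 1 line, so that the deletion and other inherited differences between the sibling lines cannot be told apart.

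Scaf1, also called cox7a2l or cox7a3, is a protein of the inner mitochondrial membrane. It joins complex III to complex IV of the respiratory chain, so that both enzymes are held in a common supercomplex. Skeletal muscle of fish is mostly fast, glycolytic fibre, and its RNA is dominated by transcripts of the contractile machinery, of the enzymes of energy supply and of the mitochondrial genome. The question put by the design was how muscle gene expression differs between the genotypes when food is abundant.

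The measurement was an estimated read count for each of 57775 Ensembl transcripts, and the total per library on the double diet lay between 13000493 and 15453702. The files give transcript identifiers and do not pair them with genes. The gene reference used here is keyed by gene and not by transcript identifiers, so 0 of the 57775 could be matched to a symbol. The level of scaf1 itself, the markers of muscle fibres and of other cell types, and the respiratory chain genes were therefore not read here. Neither the genotype nor the tissue label was checked against its genes. Transcripts are described below by identifier, length, abundance and behaviour in each fish. Isoforms of a gene share reads that the estimation divides between them, so that a change in the isoform used and a change in the gene cannot be told apart. In whole muscle, fewer cells of a type and less RNA per cell cannot be told apart either.

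Of the 57775 transcripts, 21325 passed a filter on low counts and entered edgeR's quasi-likelihood test on the 7 libraries alone, after scaling by TMM, a factor that sets the bulk of transcripts to a common level. A call required an adjusted p under 0.05 together with a log2 difference larger than 1 in either direction, and 0 transcripts met it (0%), and the lowest adjusted p (edgeR, Benjamini-Hochberg) was 0.0829. An unadjusted p under 0.05 was reached by 1825 transcripts (8.56%), of which 1082 were higher in scaf1-/- fish (5.07%) and 743 lower (3.48%). The common biological coefficient of variation between fish was 0.618. DESeq2, run on the same counts with its own filter, called 438 of 25814 transcripts with an adjusted p (1.7%), 292 higher (1.13%) and 146 lower (0.566%). Of these 438, 361 were among the transcripts tested by edgeR, and all 361 had an unadjusted edgeR p under 0.05. No count in any fish of 1 genotype was found for 111 of the 438, of which 56 were absent from scaf1-/- and 55 from scaf1+/+ muscle. The DESeq2 count ranged from 251 to 558 when each fish was left out in turn, with 251 without scaf1+/+ fish 2 and 271 without scaf1+/+ fish 3. The excess of higher calls was absent without scaf1-/- fish 6 (163 higher, 172 lower) and without scaf1-/- fish 7 (192 and 190).

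The balance of higher and lower transcripts depended on the scaling, on single fish and on the fit. With TMM the median log2 fold change over all transcripts was -0.06, and with library totals and no scaling factor it was -0.47. On library totals, 456 transcripts were higher and 1592 lower at an unadjusted p under 0.05, against 1082 and 743 with TMM. With TMM unchanged, the counts were 803 higher and 955 lower without scaf1-/- fish 7, 779 and 920 with a replicate block, and 599 and 762 in a fit of all 15 libraries. Leaving out any other single fish left more transcripts higher than lower. The TMM factors themselves were 0.705, 0.873, 1.13 and 0.89 in scaf1-/- fish 2, 3, 6 and 7 and 1.5, 0.97 and 1.1 in scaf1+/+ fish 2, 3 and 4. The factor of scaf1+/+ fish 2 lay furthest from 1.

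The sizes of difference given next are those of transcripts picked by p in the same 7 libraries. With so few fish, mostly large estimates reach a small p, so these sizes follow partly from the picking. Among the transcripts at an unadjusted p under 0.05, those higher in scaf1-/- muscle had a median log2 fold change of 1.4 and those lower one of -1.62, and 803 and 638 of them differed by more than 1 on the log2 scale. The transcripts on the higher side had a median length of 1827 bases and a median level of 9.38 CPM (counts scaled to a common total). Those on the lower side had 2570 bases and 3.56 CPM. Mean CPM over the 7 fish, the abundance classes cut on it, and the spread and distances between fish are on the TMM scale. CPM levels of single fish or of a genotype are on library totals, while the log2 fold changes beside them use TMM unless stated. After TMM scaling, the ranges of the genotypes did not overlap for 2499 transcripts (11.7%), 1300 that were higher (6.1%) and 1199 that were lower (5.62%) in scaf1-/- fish. On library totals these were 543 (2.55%) and 2037 (9.55%).

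**Figure D1:**
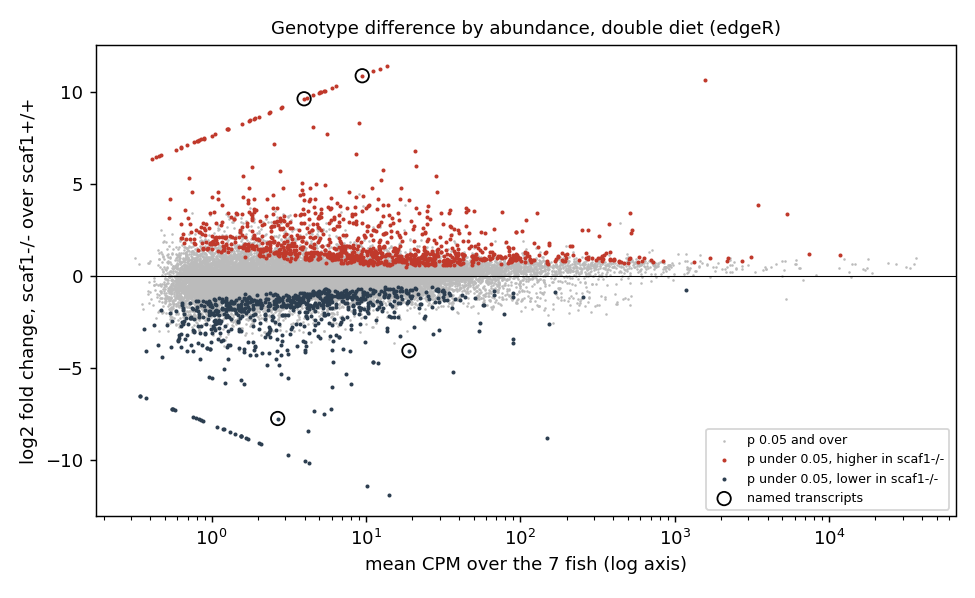
Log2 fold change of scaf1-/- over scaf1+/+ muscle on the double diet (edgeR, TMM) against the mean CPM over the 7 fish on a log axis, 1 point per transcript tested. Red and dark blue points have an unadjusted p under 0.05 (1082 higher, 743 lower), grey points do not, and circles mark the 4 transcripts named in the text. The slanting rows at the top and bottom are transcripts without a count in 1 genotype, whose fitted folds depend on a prior count.

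The 2 higher and the 2 lower transcripts of smallest p were followed through every fish. ENSDART00000138599.2, 910 bases long, had 235, 251, 237 and 89 counts in scaf1-/- fish 2, 3, 6 and 7 and none at all in scaf1+/+ fish 2, 3 and 4. The genotypes were thus separate, at 14.5 ± 5.47 CPM (SD, n = 4) against 0, and with 3 counts in each library taken as the floor the transcript was at least 66.2-fold higher in scaf1-/- muscle. By edgeR the p was 2.13e-05 and the adjusted p 0.151, and by DESeq2 the adjusted p was 1.01e-11 (range over all alternatives 2.43e-13 to 0.954). It was again without a count on the standard diet in 3 of 4 scaf1+/+ fish, with 1 count in scaf1+/+ fish 7. The scaf1-/- fish 6, B and C on that diet had 127, 92 and 282 counts, and scaf1-/- fish A had 0. Among the standard diet fish, which had no part in the picking, the transcript was thus found in 3 of 4 scaf1-/- fish. At 1 count it was found in 1 of 4 scaf1+/+ fish.

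ENSDART00000079226.6, 4983 bases long, had 106, 42, 145 and 59 counts in scaf1-/- fish 2, 3, 6 and 7 and no count in scaf1+/+ fish on the double diet. At 6.28 ± 3.35 CPM (SD, n = 4) it was at least 28.6-fold higher in scaf1-/- muscle against the same floor, with an edgeR p of 5.83e-05 and an adjusted p of 0.16. By DESeq2 its adjusted p was 1.31e-08 (range over all alternatives 1.31e-08 to 0.954). With the standard diet the genotypes overlapped, at 23 and 61 counts in scaf1-/- fish B and C, 33 and 10 in scaf1+/+ fish B and C, and 0 in the fish marked 6, 7 and A. There the presence of the transcript followed the marks B and C and not the genotype. The test of a different genotype effect in the diets (edgeR interaction) gave a p of 0.0262 and an adjusted p of 1. For each named transcript this test reuses the double diet values by which the transcript was picked. Its unadjusted p therefore leans towards small values.

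On the lower side, ENSDART00000151114.2, 7446 bases long, had the smallest p of all transcripts tested. Its counts were 31, 33, 43 and 16 in scaf1-/- fish 2, 3, 6 and 7 and 944, 369 and 750 in scaf1+/+ fish 2, 3 and 4, that is 2.19 ± 0.818 CPM (SD, n = 4) against 49.8 ± 20.1 CPM (SD, n = 3). Each scaf1-/- fish lay far under each scaf1+/+ fish. The log2 fold change was -4.05 (SE 0.363) with an edgeR p of 3.89e-06 and an adjusted p of 0.0829, and by DESeq2 the adjusted p was 1.72e-16 (range over all alternatives 1.49e-17 to 0.954). On the standard diet both genotypes held high and low fish. The scaf1-/- fish 6 and A had 1309 and 408 counts and B and C had 8 and 23, while scaf1+/+ fish 6, 7 and B had 857, 1750 and 569 and the shallow fish C had 2. The genotype effect on that diet was -0.99 on the log2 scale, with an unadjusted edgeR p of 0.455, and the interaction test gave one of 0.0638.

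ENSDART00000181381.1, 12492 bases long, had a single count in scaf1-/- fish 2 and 0 in scaf1-/- fish 3, 6 and 7, while scaf1+/+ fish 2, 3 and 4 had 177, 61 and 82 counts (7.75 ± 4.41 CPM, SD, n = 3). The scaf1+/+ to scaf1-/- ratio of pooled CPM was 434, with an exact interval of 77.4 to 17210 at 95% that covers counting error only. The edgeR p was 2.08e-05 and the adjusted p 0.151, and by DESeq2 the adjusted p was 5.33e-08 (range over all alternatives 5.33e-08 to 0.954). On the standard diet scaf1-/- fish A and B had 74 and 76 counts and fish 6 and C had 0, against 241, 223, 199 and 0 in scaf1+/+ fish 6, 7, B and C. The loss was thus found in 2 of 4 scaf1-/- fish there, and in the shallow scaf1+/+ library. The edgeR interaction test gave an unadjusted p of 0.0221 and an adjusted p of 1.

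**Figure D2:**
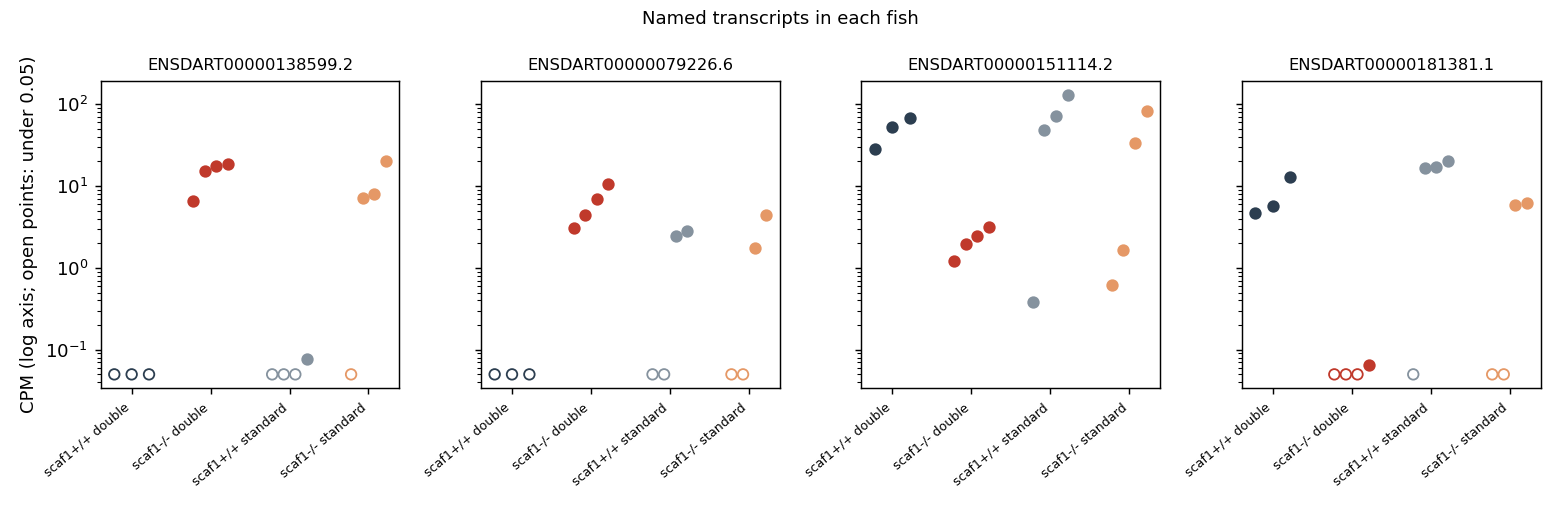
CPM on a log axis of the 4 named transcripts, 1 point per fish, in scaf1+/+ and scaf1-/- fish on the double and standard diets. Open points lie under 0.05 CPM and are drawn at 0.05. On the double diet the genotypes do not overlap in any panel, which follows from picking the transcripts by p in these fish. On the standard diet they overlap in all 4 panels. For ENSDART00000138599.2 that overlap rests on scaf1-/- fish A with 0 counts and scaf1+/+ fish 7 with 1 count.

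Among abundant transcripts, those of at least 100 CPM with a log2 fold change beyond 3 either way and no overlap between genotypes on either scale were looked at in the same way. There were 4, chosen after their values were seen, of which 3 were higher in scaf1-/- muscle and 1 was lower. A transcript of 896 bases had 2260, 3354, 14087 and 3045 CPM in scaf1-/- fish 2, 3, 6 and 7 and 799.8, 349.7 and 324.7 CPM in scaf1+/+ fish 2, 3 and 4. Every scaf1-/- fish stood above every scaf1+/+ fish, by a log2 fold change of 3.85 (SE 0.657, edgeR p 0.000402, adjusted p 0.199). By DESeq2 the adjusted p was 2.85e-07. Fish 6 carried much of the mean, and without it the log2 fold change was 3.12 (SE 0.372, adjusted p 0.241). Its level on the standard diet was 1383 to 2184 CPM in the 4 scaf1-/- fish and 554 to 650 CPM in scaf1+/+ fish 6, 7 and B, and 51405 CPM in the shallow scaf1+/+ fish C. With that library the standard diet effect was -3.47 on the log2 scale (unadjusted edgeR p 0.104) and without it 2.46 (unadjusted edgeR p 0.00674), so that 1 library turned its direction.

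A short transcript of 438 bases had 40.9, 38.5, 11370 and 714 CPM in scaf1-/- fish 2, 3, 6 and 7 and 4.8, 1.05 and 0.908 CPM in scaf1+/+ fish 2, 3 and 4. The genotypes were separate, but most of the mean came from scaf1-/- fish 6, and the log2 fold change of 10.62 had an SE of 2.63 (edgeR p 0.00402, adjusted p 0.397). Without that fish it was 7.46 (SE 1.55, adjusted p 0.332). DESeq2 gave this transcript no adjusted p. With 3 meals a day it was at 17.9 to 45.5 CPM in scaf1-/- fish, at 1.71 to 6.65 CPM in scaf1+/+ fish 6, 7 and B, and at 13784 CPM in scaf1+/+ fish C. Again the standard diet effect changed from -7.4 to 3.87 on the log2 scale when that library was left out (edgeR p 0.042 and 0.000723). On the standard diet both transcripts were therefore higher in each scaf1-/- fish than in each scaf1+/+ fish other than C, which lay far above all. Their separation on the double diet was a condition of the choice.

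The third abundant transcript on the higher side, 2397 bases long, had 251, 153, 1361 and 1440 CPM in scaf1-/- fish 2, 3, 6 and 7 and 133.2, 38.7 and 113.7 CPM in scaf1+/+ fish 2, 3 and 4. Its log2 fold change was 3.44 (SE 0.864, edgeR p 0.00435, adjusted p 0.41), and fish 6 and 7 stood well above fish 2 and 3. By DESeq2 the adjusted p was 0.00143. On the standard diet the genotypes overlapped, from 34.5 to 1177 CPM in scaf1-/- and from 94.2 to 1251 CPM in scaf1+/+ fish. The abundant transcript that was lower, 2791 bases long, had 0.24, 2.23, 0.23 and 0 CPM in scaf1-/- fish 2, 3, 6 and 7 and 1007, 124.8 and 261.3 CPM in scaf1+/+ fish 2, 3 and 4 (log2 fold change -8.79, SE 1.39, edgeR p 0.000265, adjusted p 0.193). DESeq2 gave this transcript an adjusted p of 1.14e-11. With the standard diet it was on in scaf1-/- fish 6 and A, at 919.8 and 337.9 CPM. No count of it was found in scaf1-/- fish B and C and in scaf1+/+ fish C. It was thus at or near 0 in all 4 scaf1-/- fish on the double diet, and in fish of both genotypes on the standard diet.

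Presence in 1 genotype alone was counted over all transcripts, as a description without a test. Of the 57775 transcripts, 313 had no count in all 4 scaf1-/- fish and at least 1 count in each of the 3 scaf1+/+ fish. The opposite pattern was found for 80 of the 57775. Both sets were low, with a median level of 0.278 and 0.365 CPM in the fish that had them. At 10 counts or more in each fish of the other genotype, 31 were absent from scaf1-/- and 11 from scaf1+/+ muscle, and at 100 counts or more these numbers were 2 and 0. The 31 together made up 95.9 to 347 CPM in single scaf1+/+ fish, and the 11 made up 31.1 to 87.2 CPM in single scaf1-/- fish. In the standard diet fish without scaf1+/+ fish C, 3 of the 31 and 2 of the 11 were absent from the same genotype. Of these, 2 from the 31 and 0 from the 11 also had a count in every fish of the other genotype. Another 2 and 1 were found in every fish of both genotypes. The share of all transcripts absent from these fish was not counted. The groups differ in size, and each scaf1-/- library held fewer detected transcripts than any scaf1+/+ library, as given below. The part of either in these numbers was not tested.

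The median genotype difference rose from class to class of mean CPM. The classes were cut on the mean over the same 7 fish, more of them scaf1-/- than scaf1+/+, that gave the fold change. Class and difference are thus not independent on the double diet, and the part of this in the rise was not tested. Transcripts with a mean under 1 CPM (2406) had a median log2 fold change of -0.37, those at 1 to 10 CPM (12033) of -0.16, those at 10 to 100 CPM (5971) of 0.08, those at 100 to 1000 CPM (822) of 0.46 and those at 1000 CPM and over (93) of 0.51, beside -0.06 over all 21325. On library totals all of these medians lay lower, from -0.75 in the lowest class to 0.14 in the highest, and the span between the classes was close to that with TMM. An unadjusted p under 0.05 was reached over all transcripts by 5.07% on the higher and 3.48% on the lower side. In the class at 10 to 100 CPM it was reached by 434 higher (7.27%) and 134 lower (2.24%) transcripts, at 100 to 1000 CPM by 81 (9.85%) and 4 (0.487%), and at 1000 CPM and over by 11 (11.8%) and 1 (1.08%). In the class under 1 CPM the order was turned, with 56 higher (2.33%) and 96 lower (3.99%). The median of the highest class lay between 0.3 and 0.75 when single fish were left out, with 0.3 without scaf1+/+ fish 2. In the standard diet fish the same classes had medians of -0.11, -0.13, 0.04, 0.38 and 0.67 from the lowest to the highest, and of -0.23, -0.14, 0.16, 0.96 and 1.24 without the shallow scaf1+/+ fish C.

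By length the differences were smaller. Transcripts under 1 kb had a median log2 fold change of 0.11, those of 1 to 2 kb of -0.08, those of 2 to 4 kb of -0.16 and those of 4 kb and over of -0.00. Under 1 kb, 248 transcripts were higher (7.26%) and 89 lower (2.61%) at an unadjusted p under 0.05, whereas from 2 to 4 kb 273 were higher (3.85%) and 283 lower (3.99%), beside the same 5.07% and 3.48% over all. No gene list could be set beside these classes.

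**Figure D3:**
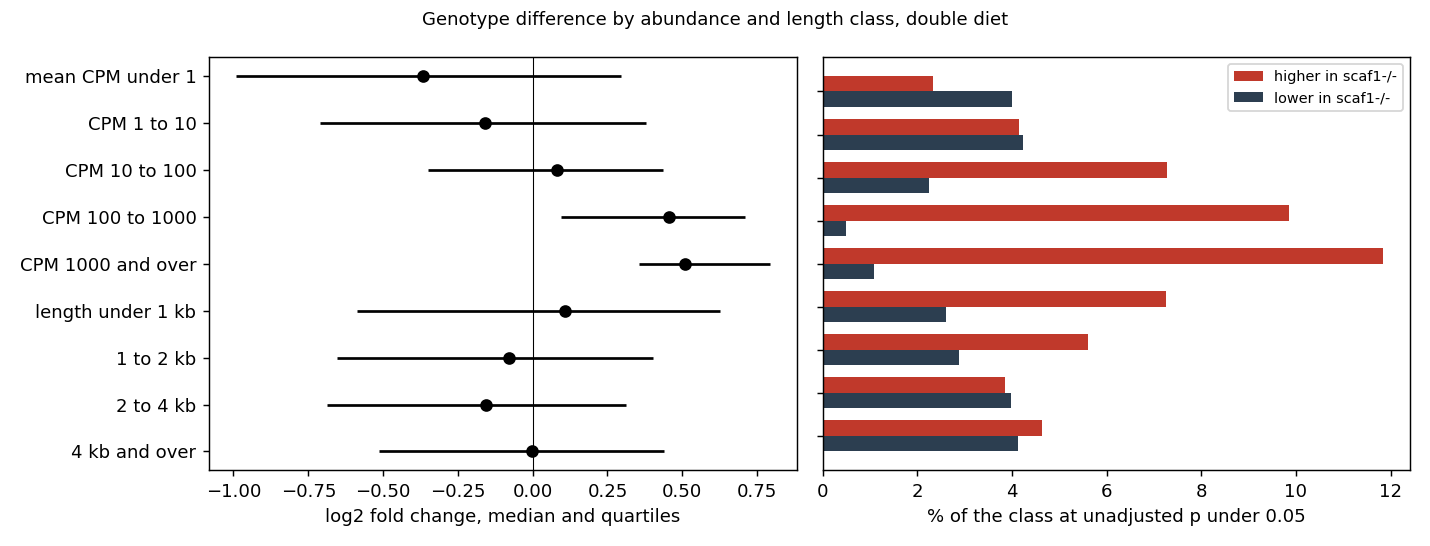
Genotype difference on the double diet by class of mean CPM and of transcript length. The left panel gives the median log2 fold change (points) with the quartiles (bars), which goes from -0.37 under 1 CPM to 0.51 at 1000 CPM and over. The right panel gives the percent of each class at an unadjusted p under 0.05, higher (red) or lower (dark blue) in scaf1-/- fish.

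At the very top of the abundance range the muscle libraries resembled each other in their members. Of the 100 most abundant transcripts of each fish, 67 were among the top 100 of all 7 fish, and 163 belonged to the top 100 of at least 1 fish. The single most abundant transcript, 1551 bases long, took 38711 to 45997 CPM in scaf1-/- fish and 14853 to 31337 CPM in scaf1+/+ fish, without overlap (log2 fold change 0.99, edgeR p 0.0597, adjusted p 0.591). The eighth, 691 bases long, also had separate ranges, at 18347 to 20088 against 7206 to 16170 CPM (log2 fold change 0.9, edgeR p 0.0917, adjusted p 0.625). The other 8 of the 10 most abundant transcripts overlapped between genotypes, and 0 of the 10 reached an unadjusted p under 0.05. Over all transcripts 11.7% did not overlap and 8.56% reached such a p, so that these counts are no result about the top 10.

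Fewer different transcripts were detected in each scaf1-/- library than in any scaf1+/+ library. At least 1 count was found for 29270, 29469, 30839 and 30236 transcripts in scaf1-/- fish 2, 3, 6 and 7 and for 33902, 32212 and 32342 in scaf1+/+ fish 2, 3 and 4. The means were 29954 ± 722 (SD, n = 4) and 32819 ± 940 (SD, n = 3) and the ranges did not overlap (two-sided exact permutation p = 0.0286, below which no test over 35 splits can go, and 0.229 adjusted over the 8 library measures tested). Leaving out any 1 fish gave a difference of -2324 to -3169, where the smallest p that can be reached is 0.0667 or 0.1. After each library was thinned to the lowest total of the 7 the difference was -2915 transcripts (exact permutation p = 0.0286). With at least 10 counts required it was -2558 (exact permutation p = 0.0571), while the ranges still did not overlap. On the standard diet the numbers were 27748 and 27848 in scaf1-/- fish C and B and 34455 and 35800 in scaf1-/- fish A and 6, against 33493 to 35766 in scaf1+/+ fish 6, 7 and B, so that the genotypes overlapped there.

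The share of counts in the most abundant transcripts was higher on average in scaf1-/- fish, but the ranges of the genotypes overlapped. The 10, 100 and 1000 most abundant transcripts took 27.4% ± 2.45, 59.1% ± 4.97 and 81.8% ± 3.6 of the counts in scaf1-/- fish (SD, n = 4). In scaf1+/+ fish they took 23.4% ± 3.70, 52.5% ± 7.75 and 76.1% ± 5.56 (SD, n = 3). The exact permutation p-values were 0.171, 0.229 and 0.171, or 0.229 each after adjustment over the 3 shares. The differences of 3.96, 6.57 and 5.68 percentage points were 1.85, 2.29 and 2.57 without scaf1+/+ fish 2. The lowest share of the top 100, 44%, was that of scaf1+/+ fish 2, where 172 transcripts made up 50% of the counts, against 32 to 77 in scaf1-/- fish and 42 and 63 in the other scaf1+/+ fish. The share of counts in transcripts of 4 kb and over was 12.9% ± 0.716 for scaf1-/- (SD, n = 4), against 14% ± 0.5 for scaf1+/+ fish (SD, n = 3; exact permutation p = 0.0857, adjusted over 4 length classes 0.267). The other 3 classes had exact permutation p-values of 0.2 to 0.286.

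**Figure D4:**
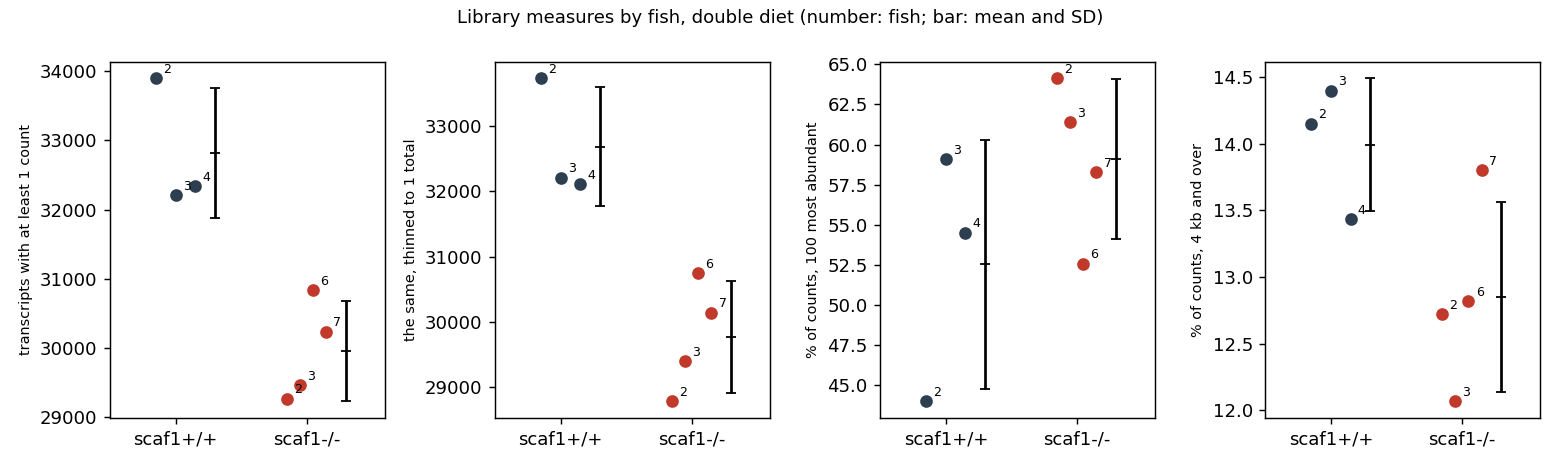
Transcripts with at least 1 count, the same after thinning to a common total, and the percent of counts in the 100 most abundant transcripts and in transcripts of 4 kb and over, 1 point per fish on the double diet with its replicate number. Bars give the mean and SD of 3 scaf1+/+ and 4 scaf1-/- fish, and the axes do not start at 0. Transcript numbers do not overlap between genotypes, while the shares do.

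The spread between fish of a genotype was large beside the distance between genotypes. The SD of log2(CPM + 1) had a median over transcripts of 0.444 in scaf1-/- fish, beside 0.456 in scaf1+/+ fish. Pairs of fish differed by a root mean square of 0.779 to 1.17 on the log2 scale within scaf1-/-, 0.748 to 0.965 within scaf1+/+ and 0.795 to 1.55 between genotypes, with medians of 0.944, 0.942 and 0.973. The nearest fish of each of the 7 was of its own genotype, while on average scaf1-/- fish 6 lay closer to scaf1+/+ fish (0.919) than to scaf1-/- fish (0.944). On average over the fish of the other genotype, scaf1-/- fish 7 (1.24) and scaf1+/+ fish 2 (1.22) lay farthest, and the other 5 fish lay at 0.891 to 1.04.

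The fish on the standard diet, which share no animal with the comparison, were used to see how the same transcripts behaved. Of the 1082 higher transcripts, 954 were tested there, and 485 (50.8%) were higher in scaf1-/- fish again, beside 62.9% of all transcripts higher on the double diet. Of the 743 lower ones 700 were tested and 527 (75.3%) were lower again, beside 65.7% of all transcripts lower on the double diet. Over all transcripts of both directions the share was 64.4%. At an unadjusted p under 0.05 on the standard diet (background 1.08% higher and 0.415% lower), 19 of the higher transcripts (1.99%) were higher and 8 lower, and 13 of the lower ones (1.86%) were lower and 7 higher. Such a p in the same direction was reached by 1.73% of all transcripts higher on the double diet. Of all those lower there, 0.419% reached it. The shallow library, scaf1+/+ fish C, with 4045429 counts and 15655 transcripts detected, weighed on this. Without it, 781 of 980 (79.7%) and 584 of 730 (80%) had the same direction, beside 73.3% over all. The shares were 75.2% of all transcripts higher and 71.7% of all transcripts lower on the double diet. At an unadjusted p under 0.05 on the standard diet (background 2.25% higher and 1.42% lower), 91 of the higher transcripts (9.29%) were then higher and 4 lower, and 67 of the lower ones (9.18%) were lower and 5 higher. Such a p in the same direction was reached by 4.56% of all transcripts higher on the double diet. Of all those lower there, 1.96% reached it.

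Standard diet fish marked B and C have stood apart in earlier results of these data, so that the count was also made without them and in them alone. Among the fish not marked B or C, 2 scaf1-/- (6 and A) against 2 scaf1+/+ (6 and 7), 866 of 985 higher transcripts (87.9%) were higher again, beside 70.7% of the same direction over all. Of all transcripts higher on the double diet, 74.7% were higher again. An unadjusted p under 0.05 on that side (background 7.43%) was reached by 294 of the 985 (29.8%) and on the opposite side by 4. Of all transcripts higher on the double diet, 13.8% reached it on that side. Of the lower ones 564 of 725 (77.8%) were lower again, 136 (18.8%) at an unadjusted p under 0.05 (background 4.55%) against 22 on the opposite side. Of all transcripts lower on the double diet, 67.3% were lower again, and 6.24% were so at such a p. Among the 4 fish marked B or C, the shallow library included, 351 of 928 higher transcripts (37.8%) and 263 of 515 lower ones (51.1%) had the same direction, beside 54.7% over all. The shares were 57.7% of all transcripts higher and 51.5% of all transcripts lower on the double diet. At an unadjusted p under 0.05 there (background 1.21% higher and 2.59% lower), 17 of the higher transcripts were higher and 69 lower, and 7 of the lower ones were lower and 6 higher. For higher transcripts the share of the same direction thus lay above that of all higher ones among the fish marked 6, 7 and A. Among those marked B and C it lay below. For lower transcripts it lay above among the fish marked 6, 7 and A and was close to that of all lower ones among B and C. The shallow library belongs to the fish marked C, so that its part and that of the marks were not separated. The difference between these subsets was not tested. The labels do not say what the marks stand for.

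**Figure D5:**
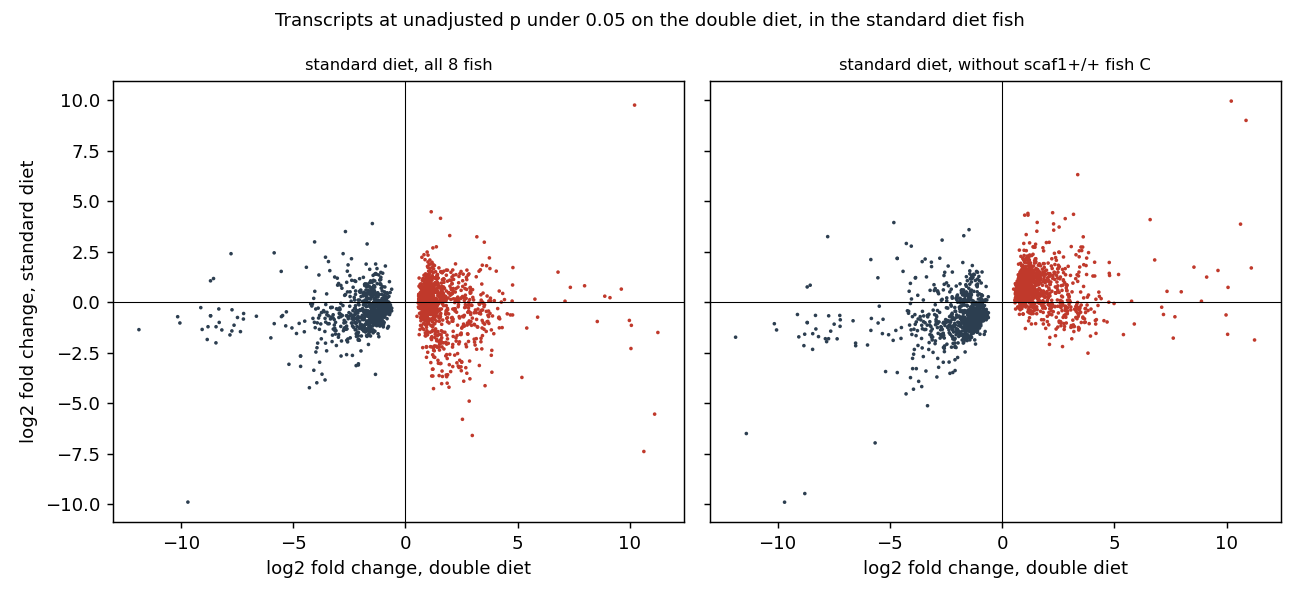
Log2 fold change (edgeR) of scaf1-/- over scaf1+/+ in the standard diet fish against that in the double diet fish, for transcripts at an unadjusted p under 0.05 on the double diet (red higher, dark blue lower). The left panel uses all 8 standard diet fish and the right panel leaves out scaf1+/+ fish C. The share of higher transcripts with the same direction goes from 50.8% to 79.7%, beside 62.9% and 75.2% of all transcripts higher on the double diet.

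Whether the genotype effect differed between the diets was tested over all 15 libraries. The edgeR interaction test called 0 of 26970 transcripts, with 1044 at an unadjusted p under 0.05 (3.87%). Without scaf1+/+ standard diet fish C it called 1 of 26862, which was lower. On all libraries DESeq2 called 59 of the 48364 transcripts it tested, 27 with a higher and 32 with a lower genotype effect on the double diet. A difference in the genotype effect between diets was thus not detectable by edgeR for the 4 named transcripts after adjustment (adjusted p 1 each).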

How the data were processed

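RNA-seq libraries of 15 fish, 1 fish each, were grouped by the sample labels. The authors pseudo-aligned reads with kallisto 0.45.0 to the Ensembl release 94 cDNA (build 11) and deposited estimated counts per transcript with lengths; the submitters' notes also name FastQC 0.11.8 and sleuth. Counts were rounded, and tests ran in edgeR 4.0.16 under R 4.3.3 (TMM, filterByExpr with a smallest count of 10, robust quasi-likelihood test, Benjamini-Hochberg) on the 7 double diet libraries. The SE of a log2 fold change is its size over the square root of edgeR's F statistic, and not an error estimated by the fit. Alternatives used DESeq2 1.42.0, apeglm 1.24.0 shrinkage and limma 3.58.1. The tests were also run on simulated counts, with an outcome that is not given here. Named transcripts were the 2 higher and 2 lower of smallest p. The comparison, lists and transcripts were chosen with earlier results of these data known. For a library without a count of a transcript, 3 counts were taken as the upper limit, which covers counting error alone. With 0 of 57775 identifiers matched to genes, the planned tests per gene, gene lists and cell type markers were not run. The labels name gemma-300 for every meal, where the study's methods give artemia for a part of them and another number of fish per tank. That replicates are separate fish comes from the study's methods.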

Additional observations from a re-analysis of the deposited data

Results flagged for a closer look

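In the 4 scaf1-/- fish on the double diet, 14 sets of values were looked at for a fish that stands apart. For normally distributed values chance alone flags about 1 in 20 of such sets. The total of scaf1-/- fish 2 on the double diet, 15453702 counts, lay apart from the other 3 scaf1-/- fish, at 13359550 to 13540458. ENSDART00000181381.1 was at 0.0642 CPM in the same fish, which is 1 count, where the other 3 scaf1-/- fish had 0. A single count beside counts of 0 is always flagged in this way.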

How the results depend on the processing

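The number of called transcripts, 0 by edgeR, was 438 by DESeq2, 339 by DESeq2 with shrinkage (261 higher, 78 lower), 15 without a filter on low counts (6 and 9), 3 and 36 by limma on log2(TPM + 1) and log2(TPM + 0.1), 381 with a replicate block and 4 in 14 libraries without scaf1+/+ standard diet fish C. The block leaves few degrees of freedom: only the marks 2 and 3 occur in both genotypes, and fish that share them did not deviate together (r = -0.20 and -0.28). Leaving out 1 fish gave 0 to 3 (3 without scaf1-/- fish 7), and with DESeq2 251 to 558. Median-ratio scaling, library totals, an adjusted p alone and all 15 libraries gave 0. The 1825 transcripts at an unadjusted p under 0.05 became 3351 without the filter (1643 higher, 1708 lower), 3032 by limma on log2(TPM + 1) (362 and 2670), 2799 with 0.1 added (382 and 2417), and 1191 to 2278 without 1 fish (1191 without scaf1-/- fish 2). The interaction counts, 0 of 26970 by edgeR, were 1 of 26862 without scaf1+/+ standard diet fish C and 59 of 48364 with an unadjusted p by DESeq2. Same-direction shares on the standard diet, 50.8% and 75.3%, were 79.7% and 80% without that fish, 87.9% and 77.8% without the marks B and C, and 37.8% and 51.1% in these alone. With at least 10 counts the difference in transcripts detected was -2558 (exact permutation p = 0.0571). The share of counts in transcripts of 1 to 2 kb, higher by 1.27 percentage points in scaf1-/- fish, was -1.10 as a share of TPM. The causes were not tested. The 4 named transcripts kept their direction under every alternative run. This follows from picking them by p in these fish, where the genotypes did not overlap, and is no separate support. Library totals, DESeq2 and the abundant transcripts without single fish, the 14 libraries, the class medians under other settings and the subsets by the marks B and C were added after seeing the data. Tests per gene were not run, since no pairing of transcripts with genes was used here.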
